A study of Mus musculus with 96 samples.

Results

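Suz12 occupancy was compared between sorted neuronal (NeuN+) and non-neuronal (NeuN-) nuclei of wild-type (WT) mouse hippocampus, using 6 of the 72 ChIP libraries in the deposited peak tables. The members were fixed by label: the 3 WT Suz12 NeuN+ libraries and the 3 WT Suz12 NeuN- libraries. All 6 came from C57BL/6N mice at 6 months of age that carried no knockout and received no treatment, male by the methods of the study, with the hippocampi of several animals pooled for each sample. NeuN is the neuronal nuclear protein Rbfox3, so the NeuN- gate holds glia and every other cell without it, and in such bulk samples fewer cells of a type and less signal per cell cannot be told apart. The other Suz12 libraries of each fraction, from Mutyh-/-, Ogg1-/- and double-knockout (DKO) mice, entered the authors' peak calling, and their values are given only where named.

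Suz12 is a core subunit of polycomb repressive complex 2 (PRC2), the complex that methylates lysine 27 of histone H3. H3K27me3, the trimethylated form, marks silenced genes, and in differentiated cells PRC2 is best known at CpG-rich promoters of developmental regulators that belong to other lineages. In neurons it is known for keeping such regulators silent for the life of the cell.

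The Suz12 table of NeuN+ nuclei held 775 peaks and that of NeuN- nuclei held 312. A total of 172 pairs overlapped one to one by at least 1 bp, with a median overlap of 388.5 bp of windows that were mostly 401 bp wide. Of these pairs, 4 lay at a satellite-like repeat near 98.66 Mb of chromosome 2, annotated to Lrrc4c, and were left out of all scaling. The other 168 pairs are called shared peaks. A further 597 peaks were found in the NeuN+ table only and 134 in the NeuN- table only, and 6 peaks of each table took part in multiple overlaps. A peak listed in 1 table has no value in the other fraction, so absence from a table is not a measured level of 0, and no test can be made at such a peak.

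The sequence under the windows differed between the sets, and a 300-base stretch from the middle of 5 windows (the NeuN+ window for shared peaks) shows how (GRCm38, plus strand, RefSeq GRCm38.p6, with capitals marking each CpG). Foxe1, a forkhead transcription factor gene, carried one of the highest single-copy signals among peaks of the NeuN+ table only (chr4:46344432-46344731, 34 CpG). Nkx2-4, a homeobox gene, stands for the CpG-rich promoters with a peak in both tables (chr2:147084691-147084990, 49 CpG). Ung, which encodes uracil-DNA glycosylase, stands for the strongest single-copy signal of the NeuN- table only outside Rn45s (chr5:114131271-114131570, 31 CpG). The chromosome 9 window belongs to a run of shared peaks next to Mir101c (chr9:3025405-3025704, 5 CpG), and the chromosome 2 window took more reads than any other in every library (chr2:98667010-98667309, 7 CpG).
Foxe1: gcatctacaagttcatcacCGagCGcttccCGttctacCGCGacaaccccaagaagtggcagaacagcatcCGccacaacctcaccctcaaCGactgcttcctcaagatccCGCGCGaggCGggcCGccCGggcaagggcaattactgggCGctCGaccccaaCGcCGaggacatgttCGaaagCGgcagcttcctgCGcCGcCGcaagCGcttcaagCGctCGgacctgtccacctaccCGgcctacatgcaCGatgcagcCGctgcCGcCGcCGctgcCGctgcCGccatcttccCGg
Nkx2-4: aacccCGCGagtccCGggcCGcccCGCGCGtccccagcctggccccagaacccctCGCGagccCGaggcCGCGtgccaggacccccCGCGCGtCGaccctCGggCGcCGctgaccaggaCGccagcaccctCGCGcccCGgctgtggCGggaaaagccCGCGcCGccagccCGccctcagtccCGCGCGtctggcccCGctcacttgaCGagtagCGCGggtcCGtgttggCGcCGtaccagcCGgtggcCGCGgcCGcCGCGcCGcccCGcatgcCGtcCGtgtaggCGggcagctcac
Ung: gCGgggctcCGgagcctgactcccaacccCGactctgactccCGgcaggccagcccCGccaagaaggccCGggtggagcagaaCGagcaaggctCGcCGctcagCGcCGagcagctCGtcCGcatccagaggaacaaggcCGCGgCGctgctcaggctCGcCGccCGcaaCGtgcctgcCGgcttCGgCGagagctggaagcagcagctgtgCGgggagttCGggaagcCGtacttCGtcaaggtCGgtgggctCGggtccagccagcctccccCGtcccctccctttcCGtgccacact
Chromosome 9 cluster: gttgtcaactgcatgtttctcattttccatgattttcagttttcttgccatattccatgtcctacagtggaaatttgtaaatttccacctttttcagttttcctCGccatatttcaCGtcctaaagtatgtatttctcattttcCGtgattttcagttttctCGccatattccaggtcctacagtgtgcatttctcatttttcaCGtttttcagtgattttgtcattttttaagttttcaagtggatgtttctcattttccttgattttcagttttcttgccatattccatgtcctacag
Chromosome 2 repeat: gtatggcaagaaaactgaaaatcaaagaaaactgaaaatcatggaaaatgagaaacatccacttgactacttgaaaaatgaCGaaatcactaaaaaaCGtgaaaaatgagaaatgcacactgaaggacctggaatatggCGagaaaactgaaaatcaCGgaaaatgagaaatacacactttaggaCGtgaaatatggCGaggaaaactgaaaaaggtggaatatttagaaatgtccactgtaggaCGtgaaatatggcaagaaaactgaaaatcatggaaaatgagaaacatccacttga

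The last of these sequences recurs among the shared peaks. In a local alignment of whole windows, 23 of the 168 shared windows matched the chromosome 2 window over at least 200 bases, with identities between 82.0% and 96.7%, most of them on the opposite strand. All 19 windows of the chromosome 9 cluster were among them, at 92.8% to 96.7% identity. The remaining 4 were annotated to Pisd-ps1, Gm5458 and 4933422A05Rik. Reads from such copies cannot be assigned to 1 locus with certainty, and how the authors treated reads with several alignments is not given in the sources used here.

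Depth was low and uneven. Reads in peaks numbered 10239, 26182 and 13044 in NeuN+ replicates 1 to 3, and 20201, 37013 and 15891 in NeuN- replicates 1 to 3. The chromosome 2 repeat took 32.3%, 33.5% and 14.5% of them in NeuN+ and 59.3%, 78.1% and 74.4% in NeuN-. Every NeuN- library lay above every NeuN+ library, with means of 26.8% ± 10.7 (SD, n = 3) and 70.6% ± 9.97 (SD, n = 3) and a difference of -43.8 percentage points. The exact two-sided permutation test gave p = 0.1, the smallest value that 3 against 3 libraries allow. Because this share is taken over the peaks of each library's own table, it also moves with the number of peaks called. Over peaks shared between tables, the difference was -28.0 points (exact permutation p = 0.1). Outside the repeat, 2986, 6067 and 3917 reads of NeuN+ and 5715, 6519 and 3182 reads of NeuN- fell in shared peaks. Levels below are recovered reads scaled to 10000 over those peaks in each library ("scaled reads"), and means are given ± SD over the 3 libraries of a fraction.

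NeuN- replicate 1 stood apart from the other NeuN- libraries in its shares of repeat and promoter reads, so results that rest on it are given with and without it. Its share of reads in repeat peaks, meaning windows at least 50% soft-masked in the genome, was 27.8%, against 52.7% and 45.7% in NeuN- replicates 2 and 3 and 13.1%, 9.60% and 8.71% in the NeuN+ libraries (reads outside chromosome 2, own table). Over the 107 shared peaks under 50% masked, its levels had a Spearman correlation of 0.65 with NeuN+ replicate 2, 0.58 with NeuN- replicate 3 and 0.39 with NeuN- replicate 2, so it was not apart from replicate 3 by this measure. NeuN- replicate 3 correlated at 0.58 with NeuN+ replicate 2 and at 0.25 with NeuN- replicate 2. These correlations are across peaks of unequal depth and describe the libraries only.

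The plot of read shares sets these library values side by side, with the promoter share and the share at Rn45s, the 45S ribosomal RNA precursor gene.

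**Figure D1:**
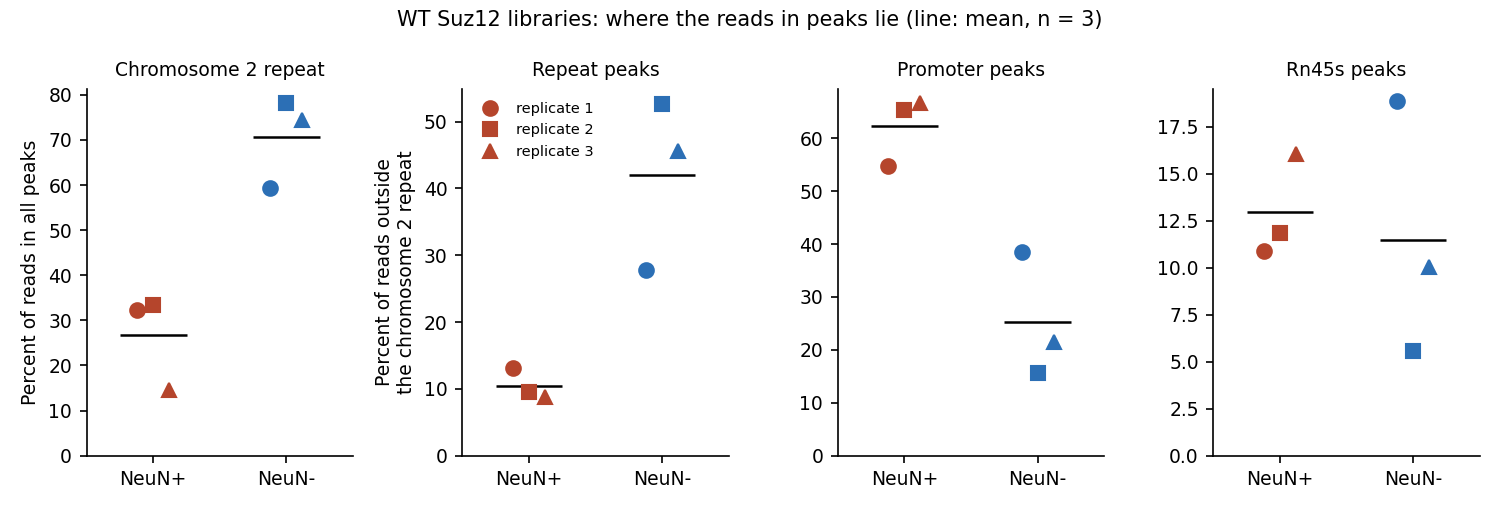
Percent of reads in the chromosome 2 repeat (of all reads in peaks) and in repeat, promoter and Rn45s peaks (of reads outside the repeat) for each WT Suz12 library; points are replicates and lines are means of 3. NeuN- libraries sit above NeuN+ libraries for the chromosome 2 repeat and for repeat peaks, below them for promoter peaks, and overlap them for Rn45s.

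The sort was checked with the H3K4me3 tables of the same study, in which a promoter peak marks an active or poised gene. Of 18 neuronal marker genes, 17 had a promoter peak in the NeuN+ table and 0 had one under their own symbol in the NeuN- table, where the peak at Prox1 is annotated to Prox1os. Of 38 markers of oligodendrocytes, astrocytes, microglia and vascular cells, 8 had one in the NeuN+ table and 3 in the NeuN- table. The glial markers Gfap, Aqp4, Mog and Cx3cr1 and the vascular marker Cldn5 had none in either table. Olig1, which specifies the oligodendrocyte lineage, had one only in NeuN-. The NeuN- H3K4me3 table is the shorter one, with 3270 peaks against 12628, and in the missing markers depth and gate cannot be told apart.

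The planned share of neuronal reads at H3K4me3 marker peaks found in both tables rested on 1 neuronal and 1 non-neuronal peak. At the neuronal one, Prox1 (a granule-neuron transcription factor, annotated to Prox1os in the NeuN- table), the NeuN+ libraries held 6, 9 and 8 reads and the NeuN- libraries 5, 7 and 3. At Slc1a2, the astrocytic glutamate transporter gene, they held 19, 25 and 26 against 4, 14 and 2. The neuronal share was 24.7% ± 1.58 (SD, n = 3) in NeuN+ and 49.6% ± 14.3 (SD, n = 3) in NeuN-, a difference of -25.0 points against the labels (exact permutation p = 0.1). Over all marker promoter peaks of each own table the same share was 73.8% in NeuN+ and 0% in NeuN-, where the Prox1os annotation left the Prox1 peak uncounted, so the direction depended on the peaks counted.

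Peaks of the NeuN+ table only lay mostly at CpG-rich promoters. Of the 597, 444 were annotated as promoter (74.4%, Wilson 95% interval 70.7 to 77.7), 71 as distal intergenic (11.9%) and 29 as intron (4.86%), where promoter means within 3 kb of a transcription start in the authors' annotation. The order was different in the other sets. Among the 168 shared peaks, 86 were distal intergenic (51.2%), 36 were in introns (21.4%) and 25 were promoters (14.9%, interval 10.3 to 21.0). Among the 134 peaks of the NeuN- table only, 48 were distal intergenic (35.8%), 37 were in introns (27.6%) and 29 were promoters (21.6%, interval 15.5 to 29.4). The intervals cover counting error only, and they do not cover how the peaks were called.

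**Figure D2:**
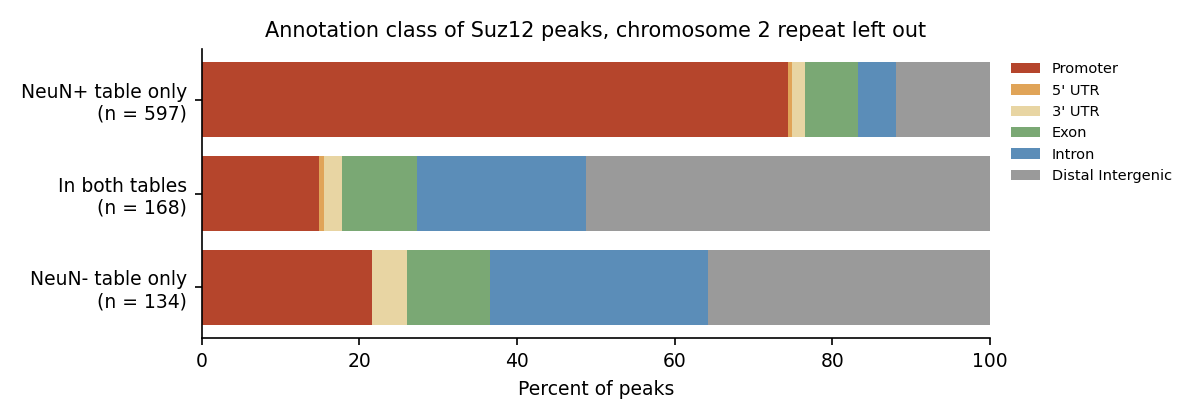
Share of Suz12 peaks in each annotation class, in percent, for the 597 peaks of the NeuN+ table only, the 168 in both tables and the 134 of the NeuN- table only. Promoters make up 74.4%, 14.9% and 21.6% of the bars.

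CpG content was also highest in the NeuN+ table only. The median window held 8.98 CpG per 100 bases in the NeuN+ table only, 1.25 in shared peaks and 0.748 in the NeuN- table only, beside a median of 2.33 (interquartile range 1.00 to 6.67) over 32851 RefSeq promoter windows. CpG-rich promoters, here promoter peaks with at least 5 CpG per 100 bases, under 50% masked and not at Rn45s, numbered 396 of 597 (66.3%), 11 of 168 (6.55%) and 8 of 134 (5.97%). Repeat peaks numbered 21 (3.52%), 57 (33.9%) and 37 (27.6%). Windows whose 31-base words mostly occur once in the genome made up 95.8%, 68.5% and 77.6%.

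**Figure D3:**
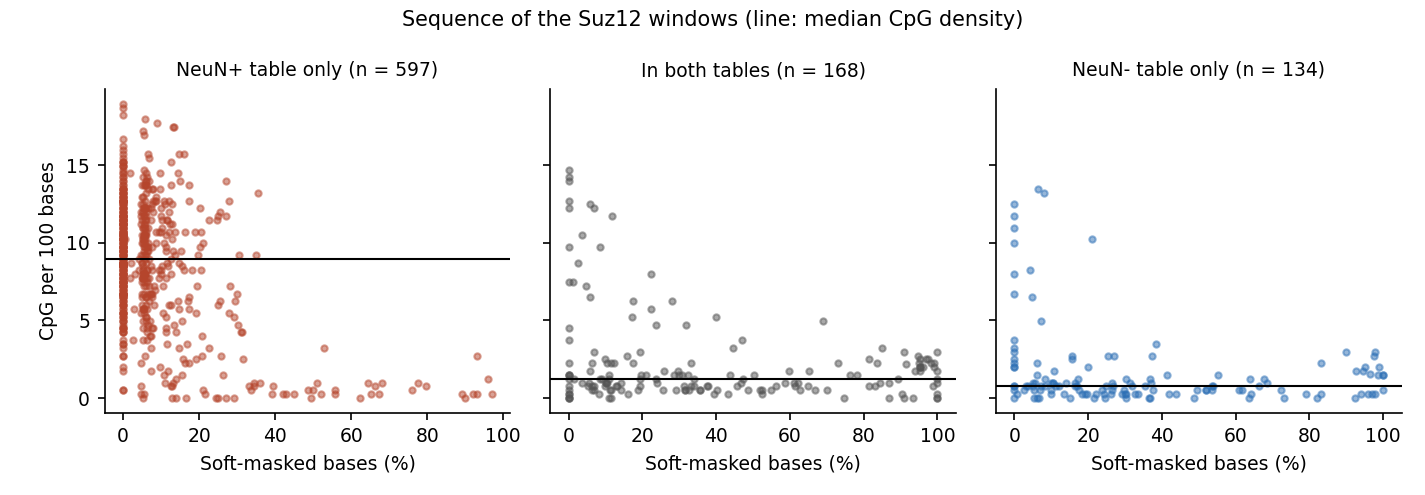
CpG per 100 bases against percent of soft-masked bases for each Suz12 window, by set; the line is the median CpG density. Points of the NeuN+ table only gather at low masking around a median of 8.98, while the medians of shared windows and of the NeuN- table only are 1.25 and 0.748.

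The sets also differed in how well the WT libraries filled them. At least 5 reads in 2 of 3 WT libraries were seen at 499 of 597 NeuN+ only peaks (83.6%) and at 47 of 134 NeuN- only peaks (35.1%). A peak of the other table lay within 2 kb of 38 NeuN+ only peaks (6.37%) but of 70 NeuN- only peaks (52.2%). The latter windows lay beside peaks that the NeuN+ table also held. H3K27me3 peaks of the same fraction overlapped 122 NeuN+ only windows (20.4%), 68 shared windows (40.5%, by the NeuN+ windows and table) and 8 NeuN- only windows (5.97%). H3K4me3 peaks overlapped 158 (26.5%), 70 (41.7%) and 17 (12.7%). The tables of the marks differ in length between fractions, which these shares do not correct for.

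Shared and NeuN- only peaks were gathered in a few genomic stretches. With clusters set as 4 or more peaks spaced at most 500 kb apart, 9 clusters held 95 of the 168 shared peaks (56.5%). The longest were a zinc finger gene array on chromosome 4 (27 peaks at Zfp982, Zfp981 and neighbours), the chromosome 9 stretch at Mir101c (19) and a chromosome 5 stretch at Gm21190 and Speer genes (12). Of the 134 NeuN- only peaks, 89 (66.4%) lay near these same clusters, including 22 at Trpm8, Hjurp, Mroh2a and Ugt1a1 on chromosome 1. Only 42 of the 597 NeuN+ only peaks (7.04%) did. The NeuN+ only clusters lay instead at developmental loci, with 10 peaks at Hoxd and Evx2, 10 at Pax2, Tlx1, Lbx1 and neighbours, 7 at Hoxa, 7 on chromosome 11 at Hoxb genes and Igf2bp1, 6 at Fendrr, Foxf1, Foxc2 and Foxl1, and 5 each at Hoxc, Tbx1 and Sox14.

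By gene, the NeuN+ only peaks carried 462 symbols, of which 426 had no peak in the NeuN- table. The NeuN- only peaks carried 64 symbols, of which 31 had no peak in the NeuN+ table. Developmental transcription factors outside the Hox clusters accounted for 209 of the 597 NeuN+ only peaks, at 139 genes, 160 of them promoter peaks. They accounted for 5 of the 168 shared and 6 of the 134 NeuN- only peaks. Hox genes, which set position along the body axis, accounted for 19 of the 597 NeuN+ only peaks, at 18 genes. They accounted for 0 in the other, smaller sets. Hoxa11os, an antisense transcript in the Hoxa cluster that the Hox list does not hold, had a shared peak.

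Among NeuN+ only peaks under 50% masked, the highest was at Rn45s, with 316, 818 and 783 reads and a scaled mean of 1469 ± 482 (SD, n = 3). Rn45s also had a shared and a NeuN- only window, and a NeuN- peak lay within 2 kb of this one. Sfi1, a centrosome protein gene with many partial copies, held 50, 0 and 49 reads, also with a NeuN- peak within 2 kb. Developmental regulators came next. Foxe1, whose product acts in thyroid development, held 18, 49 and 37 reads (78.5 ± 17.2 scaled), and Sim2, a bHLH-PAS factor, held 22, 37 and 31 (71.3 ± 9.31). Tlx2, a homeobox gene of enteric neurons, held 20, 43 and 25 (67.2 ± 3.53), and Tbx18, a T-box gene of mesenchyme, held 20, 31 and 30 (64.9 ± 12.9). Uncx, a homeobox gene of the somites, held 18, 31 and 32 (64.4 ± 15.7), and Foxl2os, antisense to the ovarian factor Foxl2, held 17, 49 and 20 (62.9 ± 15.7). Apart from Sfi1, all 3 WT libraries contributed reads to each of these peaks. The highest NeuN+ only repeat peaks, at Or1f19 and Vmn1r3, reached scaled means of 21.2 to 23.4.

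Several developmental genes carried more than 1 NeuN+ only window. Sox14 and Tbx1 had 5 each, Pitx1 and Gata2 had 4 each, and Hmx1, Dmrta2, Pax2, Prdm13, Pax7, Tfap2a, Gata4 and Pou4f2 had 3 each. Within the Hox clusters the scaled mean was 48.7 ± 24.1 (SD, n = 3) at Hoxa13 and 41.2 ± 18.0 at Hoxd9. The median over the 19 Hox peaks was 27.7 and that over the 209 other developmental peaks 28.0, beside 24.6 over all NeuN+ only peaks.

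Signalling genes were fewer. Most peaks of the Wnt, morphogen and ion channel lists were in the NeuN+ table only. So were most of all peaks (597, against 168 shared and 134 NeuN- only). The axon guidance list had 2 peaks there, 1 shared and 1 in the NeuN- table only. The Wnt list had 17 NeuN+ only peaks at 15 genes, among them the receptor Ror2 (43.1 ± 13.0 scaled), the nuclear effector Lef1 (42.8 ± 13.8), the receptor Fzd5 (32.8 scaled) and the ligand Wnt3 (28.7 ± 6.84). Other morphogens and receptors had 12 peaks at 11 genes, with the hedgehog ligand Ihh at 40.8 ± 32.1 and the ligand Bmp2 at 29.7 ± 13.4. The guidance ligand Ntn1 (41.8 ± 7.51) and the ephrin receptor Ephb4 (22.7 ± 10.8) were the axon guidance genes. Ion channel and receptor genes included the potassium channel gene Kcna7 (48.1 ± 22.7), the adrenergic receptor genes Adra2a and Adra2b, and Grin2c, which encodes an NMDA receptor subunit. From these lists the NeuN- table only held an intronic window of Kcnj6, a potassium channel gene, with 6, 5 and 10 reads (16.5 ± 13.0) and a distal one of Epha7, an ephrin receptor gene, with 0, 1 and 0 reads, while Axin2 and Plxnd1 had shared peaks.

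Genes of polycomb subunits and of glial identity were sparse. The PRC1 chromobox gene Cbx8 had NeuN+ only peaks at 26.1 ± 24.5 and 22.7 ± 8.25 scaled reads. The oligodendrocyte factors Olig1 and Olig2 had 3 NeuN+ only peaks between them, with scaled means of 22.5 ± 20.7, 33.9 ± 16.1 and 23.0 ± 18.8. The astrocyte list had 1, at Fgfr3, and the vascular list had 1, at Flt1, while the microglia list had 0. Genes named by the study as its examples, such as Oaf and Camk2a, had 0 Suz12 peaks in any of the sets.

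The NeuN- only peaks were led by Rn45s, with 584, 211 and 199 reads (657 ± 350 scaled), and by Ung. A NeuN+ peak lay within 2 kb of the Rn45s window. The 7 Ung windows ran along the gene from chr5:114130363 to chr5:114138504, from the promoter to the 3' UTR. The promoter window at chr5:114131221-114131621 held 381, 143 and 86 reads (385 ± 245), and the 3' UTR window at chr5:114137033-114137433 held 298, 101 and 75 (304 ± 193). All 7 together took 1253, 461 and 271 reads, or 15.2%, 5.69% and 6.67% of NeuN- reads outside the chromosome 2 repeat. They were single-copy, and none overlapped an H3K4me3 or H3K27me3 peak. The NeuN+ table held no Ung peak. In the 9 knockout NeuN- libraries the windows took 340 to 1237 reads (2.03% to 14.1%), and no window was at 0 reads in any of the 12 NeuN- libraries. Input reads at these windows were not used here, so the peak tables cannot tell Suz12 binding at Ung from reads of another source.

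Beyond Ung, few NeuN- only peaks stood at CpG-rich promoters. Sfi1 held 93, 198 and 57 reads (215 ± 77.1 scaled). This window was not the NeuN+ only one, but a NeuN+ peak lay within 2 kb of it. Irx3, an Iroquois homeobox gene, held 27, 19 and 15 reads (41.2 ± 10.4), and Megf11, a cell adhesion gene of retinal interneurons, held 16, 17 and 12 (30.6 ± 6.24). These 3 promoters were filled in every NeuN- library. Mecom, a zinc finger factor gene of blood stem cells, held 11, 21 and 3 reads (20.3 ± 11.4), Neurod2, a neuronal bHLH factor, 15, 2 and 10 (20.2 ± 15.1), and Ebf3, an early B-cell factor gene, 22, 10 and 1 (19.0 ± 18.0). Neurod2 is a neuronal marker and was the 1 of 11 Hox or developmental genes of the NeuN- table without a peak in the NeuN+ table. For Ebf3, Irx3 and Lbx1 a NeuN+ peak lay within 2 kb of the NeuN- one. Leading repeat peaks at Vmn1r2, Zfp982 and Mir101c reached scaled means of 13.8 to 19.5.

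Suz12 at shared peaks was then tested in limma on log2(scaled reads + 5), with NeuN+ minus NeuN- as the difference. Of 161 shared peaks with at least 10 reads over the 6 libraries, 0 passed a Benjamini-Hochberg adjusted p of 0.05 (a background of 0% of peaks called). At an unadjusted p under 0.05 there were 17 (10.6%), 5 higher in NeuN+ (3.11%) and 12 higher in NeuN- (7.45%). By edgeR 0 were called, with 5 (3.11%) and 9 (5.59%) at that unadjusted level, and DESeq2 called 2 higher in NeuN- (1.24%). The NeuN+ libraries all lay above the NeuN- libraries at 6 peaks (3.73%), and the NeuN- libraries all lay above at 15 (9.32%). The median difference over the tested peaks was 0.15. It moved with the scaling, to -0.27 with each library scaled to all peaks of its own table and 0.54 with the chromosome 2 repeat in the sum, so differences of that size have no fixed sign here.

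Most windows like the chromosome 2 repeat had higher values in NeuN-. Among the 23 windows that aligned with it, 19 had a difference below 0 and 4 above, with a median of -1.29 (-1.77 without NeuN- replicate 1, -1.45 with scaling to the own table). In 9 of the 23, all NeuN- libraries lay above all NeuN+ libraries, against 15 of all 161. The 19 windows at Mir101c alone had a median of -1.33, with 16 below 0.

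At the Mir101c window chr9:3025355-3025755, printed above in part, the NeuN+ libraries held 26, 108 and 0 reads and the NeuN- libraries 160, 300 and 99. After scaling, every NeuN- library was above every NeuN+ library, and the difference was -2.99 ± 0.84 (SE, limma adjusted p = 0.0617). It rested on single NeuN+ libraries, at -1.42 (limma adjusted p = 0.621) without replicate 3, which held 0 reads, and at -4.02, past the threshold, without replicate 2. At a neighbouring window, chr9:3001940-3002340, the reads were 4, 3 and 0 against 16, 72 and 52 (-3.15 ± 1.06, limma adjusted p = 0.158). Other scalings or leaving out a library gave a few calls: 8 higher in NeuN- with scaling to the own table (4.97%), 2 without NeuN+ replicate 2 (1.24%), 1 without NeuN+ replicate 3 (0.621%) and 1 higher in NeuN+ without NeuN- replicate 1 (0.621%). Of 9 peaks called in any alternative fit of the WT libraries, 8 were higher in NeuN- and 6 of these aligned with the chromosome 2 repeat. The remaining ones were Chl1 and Rab10os, the latter also a repeat peak, and the 1 called higher in NeuN+ was Rn45s.

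Chl1 encodes a neural cell adhesion molecule. The window annotated to it, chr6:103649008-103649408, was classed as intron but lay upstream, at -48342 bases from the gene start. That window held 0, 121 and 4 reads in NeuN+ and 57, 153 and 138 in NeuN-, a difference of -3.16 ± 0.92 (limma adjusted p = 0.0617). The fractions overlapped because NeuN+ replicate 2 alone held most of the NeuN+ reads, and without it the difference was -4.67 and passed. Without NeuN+ replicate 1, which held 0 reads, the difference was -2.0 (limma adjusted p = 0.544), and it was -1.85 by edgeR and -2.46 by DESeq2. Rab10os, an antisense transcript, held 115, 406 and 88 against 388, 814 and 374 reads (-1.36 ± 0.58, limma adjusted p = 0.283). At 4933422A05Rik, the most heavily covered of the named shared repeat peaks, the reads were 241, 561 and 308 against 709, 1651 and 601 (-1.11 ± 0.51, limma adjusted p = 0.320).

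On the NeuN+ side, the Rn45s window at chr17:39845300-39845700 held 438, 1245 and 1009 reads in NeuN+ and 965, 239 and 209 in NeuN-. NeuN- replicate 1 lay among the NeuN+ libraries there, and the difference was 1.41 ± 0.51 (limma adjusted p = 0.158). Without NeuN- replicate 1 it was 2.00 (limma adjusted p = 0.00259), the 1 call of that fit. A Zfp982 window in the chromosome 4 zinc finger array held 9, 11 and 5 reads against 0 in each NeuN- library, at least 3.17-fold higher against a floor of 3 reads per library. That pair met the minimum of 10 reads only through NeuN+ and its windows overlapped by 101 bp, so no test is given for it. At the window annotated to Mir6356 the reads were 23, 101 and 54 against 29, 9 and 7 (2.05 ± 0.91, limma adjusted p = 0.289). That window was distal intergenic, at -47066 bases from the gene start. Its sequence words had a median of 11 copies in the genome, so its reads cannot be assigned to a single locus with certainty.

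**Figure D4:**
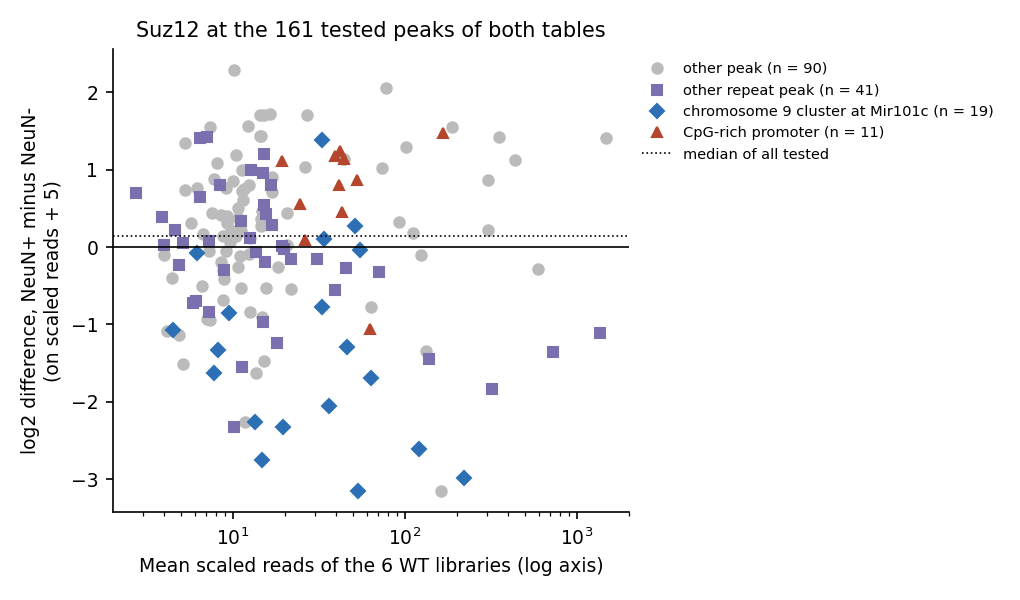
Difference in Suz12 (log2 of scaled reads + 5, NeuN+ minus NeuN-) against the mean scaled reads of the 6 WT libraries (log axis) at the 161 tested shared peaks, with the dotted line at the median of 0.15. Of the chromosome 9 windows 16 of 19 lie below 0, and of the CpG-rich promoters 10 of 11 lie above it, with 0 peaks passing the adjusted threshold.

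CpG-rich promoters with a peak in both tables had mostly higher values in NeuN+, and none passed the test. Of the 11, 10 had a difference above 0, with a median of 0.87 beside 0.15 over all tested peaks, 0 had an unadjusted p under 0.05, and in 0 did the fractions separate. The median rested on the scaling and on 1 library: it was -0.04 with scaling to the own table and 1.43 without NeuN- replicate 1. Together these promoters took 4.92%, 7.24% and 8.12% of shared-peak reads in NeuN+ replicates 1 to 3 and 8.31%, 1.18% and 3.93% in NeuN- replicates 1 to 3. NeuN- replicate 1 was the highest NeuN- library at 10 of the 11. What set that library apart was not tested.

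At the 5 transcription factor promoters on the list the windows of the fractions overlapped by only 24 bp (Tlx3) to 268 bp (Tfap2e), so the reads come partly from different stretches, and none of the 5 pairs meets an overlap of at least 300 bp. Nkx2-4 held 10, 34 and 32 reads in NeuN+ and 34, 2 and 10 in NeuN- (1.14 ± 0.99), and Foxd3, a neural crest factor gene, held 9, 30 and 27 against 38, 4 and 9 (0.81 ± 0.99). At both, NeuN- replicate 1 matched the NeuN+ libraries and the other NeuN- libraries were lower. Tfap2e, an AP-2 factor gene, held 23, 39 and 19 against 43, 5 and 14 (0.87 ± 0.95), and Sp9, an interneuron factor gene, 4, 33 and 8 against 22, 3 and 5 (0.56 ± 1.07). At Tlx3, a homeobox selector of glutamatergic fate in the spinal cord, the reads were 4, 16 and 13 against 30, 3 and 9, and the difference of 0.09 ± 1.07 had no stable sign. Without NeuN- replicate 1, the 5 differences ranged from 0.65 to 1.78 and none passed.

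**Figure D5:**
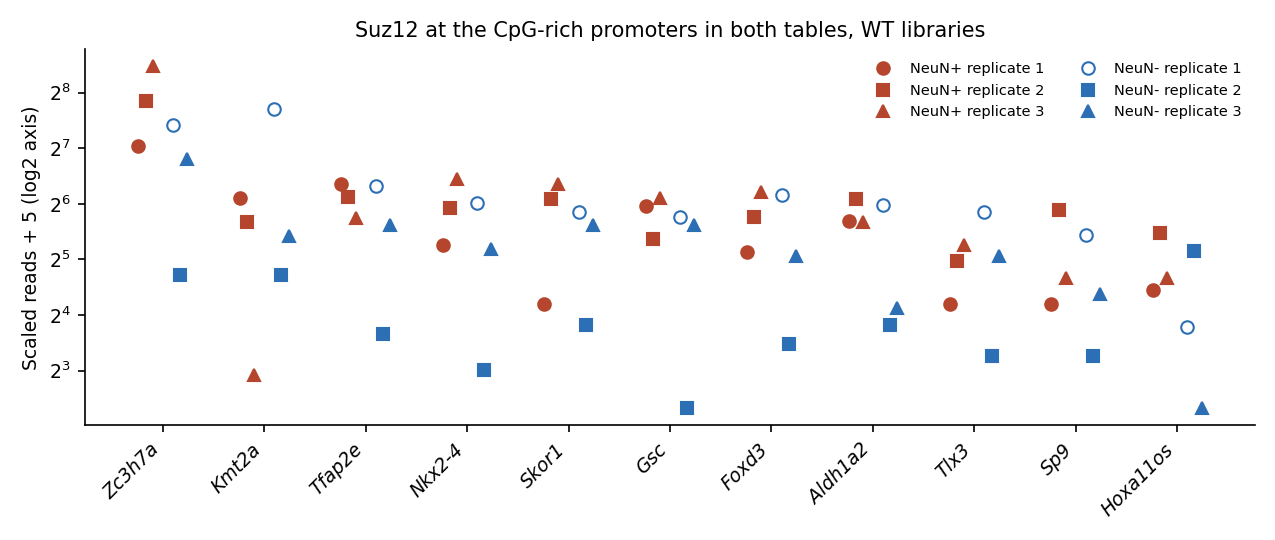
Scaled reads + 5 (log2 axis) at the 11 CpG-rich promoters with a Suz12 peak in both tables, 1 point per WT library, with NeuN- replicate 1 as an open circle. NeuN- replicate 1 is the highest NeuN- library at 10 of 11 promoters and lies among the NeuN+ points at most of them.

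Among other list genes, none passed the test. Of the next 3 windows none was at a promoter. Jarid2, an accessory subunit that recruits PRC2, held 11, 33 and 33 reads against 31, 17 and 2 (1.14 ± 0.99, limma adjusted p = 0.725). Its window was intronic, and its 31-base words had a median of 3 copies in the genome. Axin2, a negative regulator and target of Wnt signalling, held 122, 338 and 298 against 279, 70 and 96 (1.13 ± 0.64, limma adjusted p = 0.502), and 1.60 without NeuN- replicate 1. The Axin2 window was distal intergenic, 68149 bases from the gene start. At the window annotated to Plxnd1, a semaphorin receptor, the reads were 14, 0 and 0 against 16, 12 and 0 (-0.52). Several libraries were at the floor of 3 reads. The window was classed as 3' UTR but lay upstream, at -27036 bases from the gene start, so the class need not be that of Plxnd1. Kmt2a, an H3K4 methyltransferase gene, was the 1 CpG-rich promoter below 0, with 19, 28 and 1 against 117, 14 and 12 reads (-1.05).

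The promoter share of reads moved with the peaks counted. Over shared peaks the promoter share was 24.01%, 30.1% and 35.5% in NeuN+ and 29.2%, 7.32% and 12.4% in NeuN-, with means of 29.9% ± 5.74 and 16.3% ± 11.4 (SD, n = 3 each). The fractions overlapped through NeuN- replicate 1, and the difference of 13.6 points had an exact permutation p of 0.2. Without the Rn45s peak the difference was 3.78 points (exact permutation p = 0.4), and over promoters within 1 kb of a start it was 0.613 points (exact permutation p = 0.7). Over all peaks of the own table the share was 54.7%, 65.3% and 66.8% against 38.5%, 15.7% and 21.5%, with every NeuN+ library higher, by 37.0 points (exact permutation p = 0.1), a value that includes the longer promoter list of the NeuN+ table.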

How the data were processed

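Suz12 ChIP-seq of sorted WT hippocampal nuclei was analysed in 3 NeuN+ and 3 NeuN- libraries, and H3K4me3 and H3K27me3 tables served as checks. Per the labels, reads were aligned to GRCm38 (mm10) with Bowtie2 2.3.5.1 and annotated with ChIPseeker 1.36. The submitters' processing notes name SICER, DiffBind 3.10.1 and edgeR 3.42.4, and the methods of the study name epic2 for peak calling. Handling of duplicates, input subtraction and blacklists is not given in the sources used here, and input libraries were not used here. The deposited values are signal per consensus peak and library, namely reads divided by a factor for each library, normalised by the authors separately for each table. Whole reads were recovered for 100% of values (tolerance 0.001). Each table was called over 4 genotypes.

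Recovered reads were scaled to 10000 over the 168 shared peaks, without the chromosome 2 repeat. Peaks with at least 10 reads in all were tested in limma 3.58.1 (R 4.3.3; trend and robust moderation) on log2(scaled reads + 5) with Benjamini-Hochberg adjustment, and the code was tested on simulated data. Shares of reads were compared by exact two-sided permutation, whose smallest p is 0.1. The count models edgeR 4.0.16 and DESeq2 1.42.0, other scalings, pseudocounts of 1 and 20, filters, overlaps, a replicate block, the knockout contrasts and leaving out each library were alternatives. The p-values rest on the spread between these pooled samples, which may be technical. In the main limma fit, moderation was complete (infinite prior degrees of freedom) at 154 of 161 peaks. There the SE and p came from the variance trend over all peaks, not from the spread of a peak's own libraries. Without robust moderation the smallest limma adjusted p was 0.238, against 0.0617 in the main fit. Intervals and floors cover counting error only.

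Named peaks were, by rule, the 3 smallest p in each direction where none was called, the 5 highest shared means, the 8 highest peaks of each table only and the 3 highest repeat peaks, polycomb subunit peaks and shared peaks of the gene lists. Some members of the lists are not reported here. The members, lists and rule were chosen with earlier results of these data known. Kmt2a, Hoxa11os, the knockout values at Ung, the CpG-rich promoter class, the alignment to the chromosome 2 window and the list genes quoted from single tables were chosen after their values were seen.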

Additional observations from a re-analysis of the deposited data

How the results depend on the processing

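The count of called shared peaks was 0 in the main fit, with edgeR, with TMM factors, with other pseudocounts, filters and overlaps, without repeat peaks and with a replicate block (12 at an unadjusted p under 0.05). It was 8 with scaling to all peaks of the own table, 6 with DESeq2 size factors, 2 with DESeq2 itself and, in alternatives added after seeing the data, 8 with scaling to shared peaks under 50% masked and 7 with scaling that also left out Rn45s, all higher in NeuN-. Leaving out 1 library gave 0 to 2 calls, namely 2 without NeuN+ replicate 2, 1 without NeuN+ replicate 3 and 1 without NeuN- replicate 1. The same contrast gave 1 call in Mutyh-/-, 14 in Ogg1-/- (10 higher in NeuN+) and 3 in DKO libraries. The cause of these changes was not tested. Same-numbered libraries did not deviate together (r of -0.057, -0.088 and -0.0084), so the numbers were not taken as pairs, and the block changed no call.

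The chromosome 2 difference ranged from -49.5 to -37.7 points, the promoter share from 9.09 to 20.0 points and the H3K4me3 marker share from -33.1 to -19.8 points when 1 library was left out, and the marker share was 73.8 points over own-table peaks. Counting peaks within 2 kb as shared gave 78.0% promoters in the NeuN+ table only and left 64 NeuN- only peaks. A minimum of 5 reads in 2 of 3 libraries gave 80.8% and 29.8% promoters, with 47 NeuN- only peaks at 33 symbols, and the same minimum in NeuN- replicates 2 and 3 left 26 peaks at 19 symbols with 34.6% promoters. Tlx3 turned to -0.37 (DESeq2), -0.22 and -0.16 (edgeR, TMM), -0.16 and -0.041 (limma with DESeq2 and TMM factors), -0.021 (pseudocount 20), -0.65 (own table), -0.41 (under 50% masked), -0.41 (without repeat peaks), -0.26 (also without Rn45s), -0.14 (without NeuN+ replicate 3) and -0.64 (without NeuN- replicate 2). With own-table scaling Sp9 was -0.20, Foxd3 -0.081 and Tfap2e -0.043. Plxnd1 was 0.070 with the chromosome 2 peaks in the scaling, and ranged from -1.65 to 0.038 with 1 library left out, at 0.038 without NeuN+ replicate 2 or 3 and 0.012 without NeuN- replicate 1. With the chromosome 2 peaks 4933422A05Rik was 0.013. The window annotated to Pak3 was distal intergenic, at -35334 bases from the gene start. It held 312, 371 and 43 reads in NeuN+ and 122, 610 and 208 in NeuN-. Its difference was -0.29 in the main fit (limma adjusted p = 0.984) and 0.81 with the chromosome 2 peaks. Pak3 ranged from -0.95 to 0.65 with 1 library left out, at 0.65 without NeuN+ replicate 3 and 0.15 without NeuN- replicate 2. The median peak of a library held 2 to 15 reads.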
